A study of Mus musculus with 6 samples.

Results

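Mpo or Prtn3 cells were chosen by their counts of 2 mRNAs, as single cells with at least 2 unique molecules (UMIs) of Mpo and Prtn3 in sum and at most 1 UMI of H2-Aa, H2-Ab1, H2-Eb1, S100a8 and S100a9 in sum. The rule picked 283 of the 60671 cells that had 200 genes or more, no more than 2000 UMIs and no more than 30% of their UMIs from mitochondrial genes, which is 0.466%. Of these cells, 245 (86.6%) lay in the 2 libraries that began from DN1 cells. Granulocyte-monocyte progenitors were the working label, but of 13 further markers of these progenitors 11 could be tested and 3 of these rose. The cells of the later starts were too few to check. The cells are therefore called here by the genes that chose them.

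Mouse progenitors at 3 steps of early T cell development were placed back on OP9-DL1 stromal cells, which present a Notch ligand, for 4 days, and their RNA was counted by sci-RNA-seq3, a method that labels cells by combined barcodes. WT cells were Bcl11b YFP/YFP and ΔTE cells were Bcl11b YFPΔEnh/YFPΔEnh, in which both copies lack the timing enhancer of Bcl11b, and both carry the YFP reporter on a C57BL/6 background. Cells came from CD117-enriched bone marrow of mice of 2 to 4 months, with 6 to 8 mice of both sexes pooled per genotype, and were sorted after a first culture as DN1 (CD44+CD25-), DN2a (CD44+CD25+Bcl11b-YFP-) or DN2b (CD44+CD25+Bcl11b-YFP+), without cells stained for lineage markers that include CD11b, Gr-1 and CD11c. Flt3-L and IL-7 were in the medium of every group, with IL-2, SCF and IL-15 in the re-culture. Each condition is 1 library of pooled cells, read in 3 reverse-transcription wells that are technical parts of it, so that no genotype or start could be tested against another. The libraries hold 8007395 to 14555100 UMIs in all barcodes. Each barcode carries the name of its well, so that no barcode could be shared between libraries.

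Granulocyte-monocyte progenitors make neutrophils and monocytes, and early in that path they fill azurophil granules with myeloperoxidase (Mpo) and with the serine proteases proteinase 3 (Prtn3), neutrophil elastase (Elane) and cathepsin G (Ctsg). The factors C/EBPα, PU.1 and RUNX1 act together in that program, while C/EBPε and late granule genes such as Ltf and Ngp mark later neutrophil steps. Early thymic progenitors keep some ability to make these cells until Notch signaling and T-lineage factors, Bcl11b among them, close it.

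The promoters of the 4 classical azurophil genes are shown because 2 of them chose the cells and the other 2 are measured below. All 4 genes matched the RefSeq promoter table (GRCm38.p6). Each window runs from 250 bases before to 50 bases after the start of transcription, 5′ to 3′ on the strand of the gene, and capitals mark the letters GAGGAA (a core that PU.1 can bind), TAACNG (Myb) and TGTGGT (Runx), or their reverse complements, which do not overlap here. Mpo lies on the plus strand at chr11:87793534-87793833, Prtn3 on the plus strand at chr10:79879417-79879716, Elane on the plus strand at chr10:79886062-79886361 and Ctsg on the minus strand at chr14:56102525-56102824.
Mpo: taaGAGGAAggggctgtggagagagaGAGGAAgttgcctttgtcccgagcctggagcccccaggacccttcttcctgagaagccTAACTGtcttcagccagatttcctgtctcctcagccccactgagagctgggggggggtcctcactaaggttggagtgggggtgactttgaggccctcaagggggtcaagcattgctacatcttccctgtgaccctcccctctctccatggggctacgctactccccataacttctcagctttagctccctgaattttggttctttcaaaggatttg
Prtn3: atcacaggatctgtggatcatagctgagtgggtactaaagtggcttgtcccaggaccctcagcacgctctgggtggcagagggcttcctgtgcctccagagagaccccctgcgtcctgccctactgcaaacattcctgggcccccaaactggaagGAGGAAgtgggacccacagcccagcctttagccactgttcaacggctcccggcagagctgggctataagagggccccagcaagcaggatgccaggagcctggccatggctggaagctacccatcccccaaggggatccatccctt
Elane: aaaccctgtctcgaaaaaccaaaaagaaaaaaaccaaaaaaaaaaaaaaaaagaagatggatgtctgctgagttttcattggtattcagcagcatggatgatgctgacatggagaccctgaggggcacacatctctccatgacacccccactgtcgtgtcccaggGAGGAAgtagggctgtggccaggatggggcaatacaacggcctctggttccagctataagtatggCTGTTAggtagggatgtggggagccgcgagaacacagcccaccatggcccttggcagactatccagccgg
Ctsg: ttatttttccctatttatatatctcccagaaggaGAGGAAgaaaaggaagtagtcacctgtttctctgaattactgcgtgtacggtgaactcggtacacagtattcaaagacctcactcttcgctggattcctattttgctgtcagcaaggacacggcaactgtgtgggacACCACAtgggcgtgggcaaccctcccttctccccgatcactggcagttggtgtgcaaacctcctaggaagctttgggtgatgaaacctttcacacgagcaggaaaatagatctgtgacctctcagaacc
GAGGAA was found in all 4 windows, with 2 copies in Mpo, and in 28.1% of 32544 promoter windows of the same length on either strand. TAACNG was found in Mpo and Elane and in 23.4% of all windows, and TGTGGT in Ctsg and in 16.7%. The letters TTNNGNAA, searched for C/EBP factors, were in 0 of the 4 windows and in 40.7% of all. These matches describe the letters and not bound sites.

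The cells were most frequent in the DN1 libraries and rare in the DN2a and DN2b libraries, whose intervals overlapped within each genotype. They made up 1.47% of WT DN1 cells (161 of 10925, exact 95% binomial interval 1.26 to 1.72%) and 0.816% of ΔTE DN1 cells (84 of 10294, 0.651 to 1.01%). From the DN2a start the shares were 0.108% in WT (21 of 19489, 0.0667 to 0.165%) and 0.121% in ΔTE (14 of 11594, 0.0660 to 0.203%). Of the DN2b starts, WT held 3 of 4968 cells (0.0604%) and ΔTE held 0 of 3401 cells, which allows a share of up to 0.0882% (3 counts of the total, with an exact upper limit of 0.108%). All intervals and limits cover counting error only. The DN1 share was thus 13.7-fold the DN2a share in WT (log2 ratio 3.77, 3.11 to 4.505) and 6.76-fold in ΔTE (2.76, 1.93 to 3.69).

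Within the DN1 start, the ΔTE library held fewer of these cells than the WT library. The log2 ratio of the shares was -0.85 (-1.25 to -0.46), a 1.81-fold lower share. The 3 wells of WT DN1 gave 1.84, 1.31 and 1.35%, and the 3 wells of ΔTE DN1 gave 0.808, 0.884 and 0.754%, so that the wells did not overlap. Wells split 1 culture each, and whether other cultures of these genotypes would differ likewise was not tested. From the DN2a start the log2 ratio was 0.16 (-0.92 to 1.21), and the wells overlapped, at 0.0685, 0.0963 and 0.157% in WT and 0.0813, 0.103 and 0.215% in ΔTE. With every cell thinned to 300 UMIs the DN1 shares fell to 0.787% in WT and 0.366% in ΔTE, and their log2 ratio was -1.10 (-1.73 to -0.50). The share and its ratio depended on how many UMIs the rule asked for, with a DN1 ratio of -0.31 at 1 or more UMIs and -1.52 at 3 or more.

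**Figure D1:**
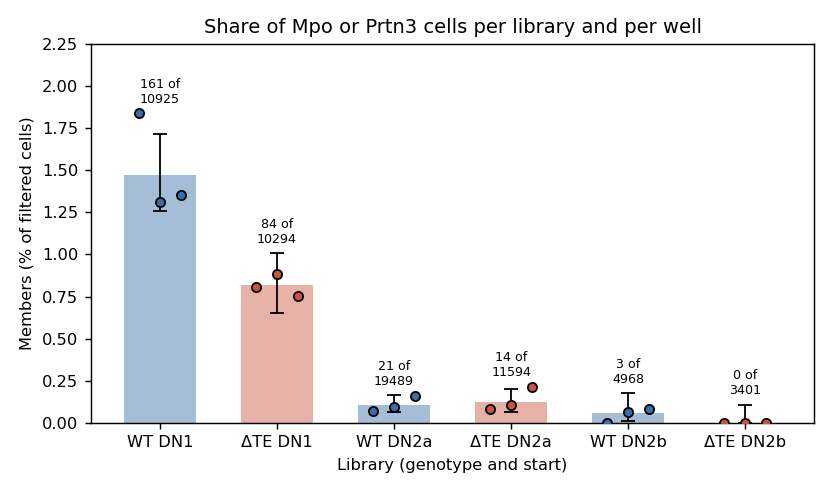
Share of Mpo or Prtn3 cells among filtered cells (%, vertical axis) in each of the 6 libraries, with bars for exact 95% intervals and points for the 3 wells. WT DN1 (1.47%) and ΔTE DN1 (0.816%) stand above the DN2a and DN2b libraries, which all lie at or below 0.121%.

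Most cells sat at the edge of the rule. Of the 283 cells, 183 held exactly 2 UMIs of Mpo and Prtn3 and 100 held 3 or more, with a highest sum of 16 in WT DN1, 15 in ΔTE DN1 and 8 in WT DN2a. Mpo alone was counted in 173 cells, Prtn3 alone in 18 and both in 92. Just outside the rule stood 1492 cells with 1 UMI, 1045 of them in the DN1 libraries. At least 4 UMIs were counted in 28.6% of the WT DN1 cells (46 of 161), in 19.0% of the ΔTE DN1 cells (16 of 84) and in 9.52% of the WT DN2a cells (2 of 21). The cells were deeper than the rest of their libraries, with median UMIs of 594 against 461 in WT DN1, 664 against 483 in ΔTE DN1 and 619 against 385.5 in WT DN2a.

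Free RNA can give such UMIs to cells that do not make them, so the same counts were taken in cell types that should lack both genes. In the DN1 libraries, 6.21% of all cells (1317 of 21219) held at least 1 UMI of Mpo or Prtn3, against 3.17% of cells with 2 or more stromal UMIs (16 of 505) and 0.676% of cells with 2 or more UMIs of Cd3g, Cd3e and Cd3d (1 of 148). At 2 or more UMIs the shares were 1.23% of all cells and 0.396% of stromal cells (2 of 505). The Cd3 set was defined without the chosen cells, while the stromal set kept them. Its 0 of 148 at 2 or more UMIs was thus set by that definition and is no measure of background. The same definition can lower its share at 1 or more UMIs. Median UMIs were 615 in stromal cells, 537 in Cd3 cells and 462 in all cells of WT DN1. In ΔTE DN1 they were 543, 648 and 485, so that both sets were deeper than all cells in each DN1 library. In the DN2a libraries 0.113% of all cells (35 of 31083) and 0.0368% of stromal cells (1 of 2719) passed 2 UMIs, and 1.44% and 0.956% (26 of 2719) passed 1. The DN2a share of 0.113% lay within the exact interval of the stromal share of these libraries, 0.000931 to 0.205%, and an excess over background at 2 or more UMIs was not detectable there at this depth, while at 1 or more UMIs the stromal interval ended at 1.40%, just below the 1.44% of all cells. In the DN1 libraries the interval of the stromal share at 2 or more UMIs, 0.0480 to 1.42%, also held the share of all cells, while at 1 or more UMIs it ended at 5.09%, below the share of all cells.

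The label was then checked against genes that the rule did not use. Of 13 further markers of granulocyte-monocyte progenitors (Elane, Ctsg, Ms4a3, Prss57, Cebpa, Cebpe, Gfi1, Csf3r, Calr, Plac8, Fcgr3, Cd34, Kit), 11 could be tested, 3 rose (Elane, Ctsg and Csf3r), 0 fell and Cebpe had 0 UMIs. Cebpe was rare elsewhere too, in 9 of 60388 other cells, so that its 0 UMIs say little about the label. These 13 markers summed to 3000.1 CPM (UMIs of a gene scaled to a common total of 1000000 UMIs) in the chosen cells of WT DN1. The other cells of that library were at 2161 CPM. The sums were 3238 against 2228 CPM in ΔTE DN1 and 2429 against 2171 CPM in WT DN2a. They were 2873 against 2046 CPM in ΔTE DN2a and 2576 against 1683 CPM in WT DN2b. Calr (256 UMIs) and Plac8 (163 UMIs) held most of the 619 marker UMIs of the chosen cells. Neither passed, at -0.06 ± 0.19 and 0.17 ± 0.20, so the sums say little about the label. In the chosen cells 3 UMIs are 319 CPM in ΔTE DN2a and 703 CPM in WT DN2b. At least 1 UMI of 7 granulocyte genes (Elane, Gda, Anxa3, Abca13, Csf3r, Ms4a3 and Cebpe, a set chosen after their values were seen) was counted in 86 of the 245 DN1 cells (35.1%, 29.1 to 41.4%) and in 1.12% of the other DN1 cells. Thinned to 300 UMIs, the shares were 26.1% (61 of 234) and 0.668%. At least 1 UMI of 9 T-lineage genes (Bcl11b, Cd3g, Cd3e, Cd3d, Thy1, Il2ra, Lck, Tcf7 and Gata3) was counted in 35.9% of the DN1 cells (88 of 245) and in 61.2% of the other DN1 cells, and in 23.1% and 48.2% after thinning.

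The DN2a cells gave little ground for or against the label. Of their 35 cells, 1 (2.86%, 0.0723 to 14.9%) held a UMI of the 7 granulocyte genes, which were chosen on values that come mostly from DN1 cells, against 0.560% of other DN2a cells. T-lineage UMIs were held by 26 of 35 (74.3%) and by 82.1% of other DN2a cells, and after thinning by 15 of 31 (48.4%, 30.2 to 66.9%) and 72.5%. All 3 cells of WT DN2b held a T-lineage UMI and 0 held a granulocyte UMI. Over all 283 cells, 87 held a granulocyte UMI, 117 a T-lineage UMI and 10 both. A UMI of 8 monocyte genes (Csf1r, Irf8, Ly6c2, Ccr2, Cx3cr1, F13a1, Ms4a6c and Klf4) was held by 62 cells, 24 of which also held a granulocyte UMI. Stromal genes summed to 2585 CPM in the chosen cells of WT DN2a, where all 33 stromal UMIs lay in 1 of the 21 cells, and to 106 CPM in each of the chosen cells of WT DN1 and ΔTE DN2a and 108 CPM in those of ΔTE DN1. The other cells were at 2616 CPM in WT DN2a, 1655 CPM in ΔTE DN2a, 564 CPM in WT DN1 and 324 CPM in ΔTE DN1. The part of these T-lineage counts in the WT DN2a values below was not tested, and list counts that change without that library are given beside the main ones. With stromal cells left out, 20 chosen cells remained in WT DN2a. Among the named genes of the comparison with all other cells below, Bcl11b alone then lost its call.

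Gene levels were tested on UMI sums of the 3 libraries with at least 20 chosen cells (WT DN1, WT DN2a and ΔTE DN1), with the library as a block. Against all other cells, edgeR's quasi-likelihood test called 58 of 10337 genes higher (0.561%) and 38 lower (0.368%) at a Benjamini-Hochberg adjusted p under 0.05. Scaling by RLE in place of TMM gave 78 higher and 29 lower, and moved the median of all genes from -0.20 to -0.08. Without WT DN2a the counts were 75 and 57, without ΔTE DN1 25 and 1, and without WT DN1 8 and 2. Of the 58 genes called higher, 27 were higher in each of the 3 libraries, and 20 had under 20 UMIs in the chosen cells. The 38 lower genes were lower in each library in 37 cases. The DN1 libraries hold most of the chosen cells' UMIs, and 1 UMI in the chosen cells of WT DN2a is worth 78.3 CPM.

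Elane was the gene with the largest rise among those named, and of the granule proteases Ctsg rose as well. Elane, the neutrophil elastase, had 25 UMIs in the chosen cells of WT DN1, 14 in ΔTE DN1 and 1 in WT DN2a, which gave 221, 216 and 78.3 CPM against 5.27, 0.686 and 0 CPM in the other cells of these libraries. Elane was thus higher in each library, and the single UMI of WT DN2a cannot place its level beside the DN1 libraries, since 3 UMIs there are 235 CPM. Its log2 fold change was 6.23 ± 0.55 (SE, n = 3 libraries, edgeR's adjusted p = 3.59e-26). Elane spans chr10:79886247-79888215 on GRCm38 on the same strand as Prtn3 at chr10:79874476-79883174. Ctsg, cathepsin G, had 27, 6 and 2 UMIs in WT DN1, ΔTE DN1 and WT DN2a, which gave 238, 92.5 and 157 CPM against 37.6, 35.9 and 26.7 CPM. Ctsg was higher in each library, with UMIs in the other cells of all 3 libraries as well, and its log2 fold change was 2.16 ± 0.40 (SE, n = 3, edgeR's adjusted p = 2.29e-05). Without WT DN1, Ctsg was at 1.35 ± 0.89 and did not pass (edgeR's adjusted p = 0.999). Of 21 azurophil granule and protease genes, 19 were tested, Elane and Ctsg rose and 0 fell (3 lower at an unadjusted p under 0.05 by edgeR and 0 by DESeq2), with a median log2 fold change of -0.19 beside -0.20 over all genes tested, and without WT DN2a 3 of 20 rose, with Ms4a3 as the third. Among the genes of the list that did not pass, Ctsc, which activates the granule proteases, gave 0.60 ± 0.33, Lyz2 (lysozyme) 0.67 ± 0.52 and Prss57 -1.20 ± 0.61. Ms4a3, a marker of this progenitor, had too few UMIs for the filter of the 3-library test, with 16 in WT DN1, 7 in ΔTE DN1 and 0 in WT DN2a.

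Genes outside the granule list rose too. Gda, guanine deaminase, had 34, 29 and 1 UMIs in WT DN1, ΔTE DN1 and WT DN2a, which gave 300.01, 447 and 78.3 CPM against 8.34, 2.74 and 0.221 CPM. Gda was counted in 46 of the 283 cells, and its log2 fold change was 5.999 ± 0.45 (SE, n = 3, edgeR's adjusted p = 9.34e-36). Abca13, a lipid transporter, gave 176, 123 and 78.3 CPM against 10.0, 2.74 and 1.22 CPM (4.51 ± 0.57, adjusted p = 2.94e-12). Fgd4, an exchange factor for the small GTPase Cdc42, gave 247, 293 and 78.3 CPM against 13.4, 10.1 and 3.43 CPM (4.35 ± 0.44, adjusted p = 6.38e-20). Each value of 78.3 CPM is 1 UMI in WT DN2a, and those of Elane, Gda and Abca13 all lay in the same 1 of 21 cells. The direction of these genes in WT DN2a thus rests on single UMIs, and their rise rests on the DN1 libraries. Tfec, a factor of the MiT family, gave 4.25 ± 0.56 (adjusted p = 3.13e-11), and 4.22 ± 1.20 without WT DN1, where it did not pass. Elane, Gda, Abca13, Fgd4 and Fndc3b were the 5 genes among those named that stayed past the threshold in all 12 alternatives, with log2 fold changes of 5.43 to 8.30 for Elane and 5.17 to 7.203 for Gda. Dach1 and Anxa3 were at 0 UMIs in the chosen cells of WT DN2a, where 0 allows up to 235 CPM, and were high in both DN1 libraries. Dach1, a corepressor, gave 326 and 324 CPM in WT and ΔTE DN1 against 17.02 and 6.52 CPM (4.62 ± 0.41, adjusted p = 3.51e-25), and Anxa3, an annexin, 168 and 200.5 CPM against 6.47 and 2.92 CPM (4.67 ± 0.53, adjusted p = 4.31e-15).

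Receptors and factors of the granulocyte-monocyte path moved less evenly. Of 22 receptor genes, 21 were tested, 3 rose (Csf3r, Il6ra and Ly6c2) and 0 fell (1 lower at an unadjusted p under 0.05 by edgeR), with a median log2 fold change of 0.58 beside -0.20 for all genes. Csf3r, the receptor of the neutrophil growth factor G-CSF, had 9, 8 and 0 UMIs in WT DN1, ΔTE DN1 and WT DN2a (3.83 ± 0.66, adjusted p = 3.16e-06). Il6ra, a receptor chain for IL-6, gave 2.45 ± 0.56 (adjusted p = 0.00261), and Ly6c2, a surface protein of monocytes and their progenitors, 4.29 ± 0.73 (adjusted p = 2.34e-06). The progenitor receptors did not pass, Kit at -0.24 ± 0.29 and Cd34 at -0.13 ± 0.43. Of 16 factors, 14 were tested, Zeb2 rose and 0 fell (0 lower at an unadjusted p under 0.05 by edgeR and by DESeq2), with a median of 0.07. Zeb2, a repressor used in myeloid cells, had 92, 49 and 4 UMIs in WT DN1, ΔTE DN1 and WT DN2a, at 812, 756 and 313 CPM against 224, 187 and 185 CPM (1.65 ± 0.22, adjusted p = 3.01e-11). Zeb2 lost its call without WT DN1 (1.40 ± 0.38) and without ΔTE DN1 (1.36 ± 0.42). Cebpa, which drives the start of this path, had 5 UMIs in all (2.98 ± 1.07, adjusted p = 0.259), Spi1, which encodes PU.1, had 27 (0.93 ± 0.39, adjusted p = 0.455), Irf8, of the monocyte branch, had 12 (1.46 ± 0.66, adjusted p = 0.561), and Gfi1, of the neutrophil branch, had 3. Runx1, the third factor of that program, gave 1068, 1403 and 1253 CPM in WT DN1, ΔTE DN1 and WT DN2a against 1375, 1137 and 1632 CPM (-0.32 ± 0.19, adjusted p = 0.770).

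**Figure D2:**
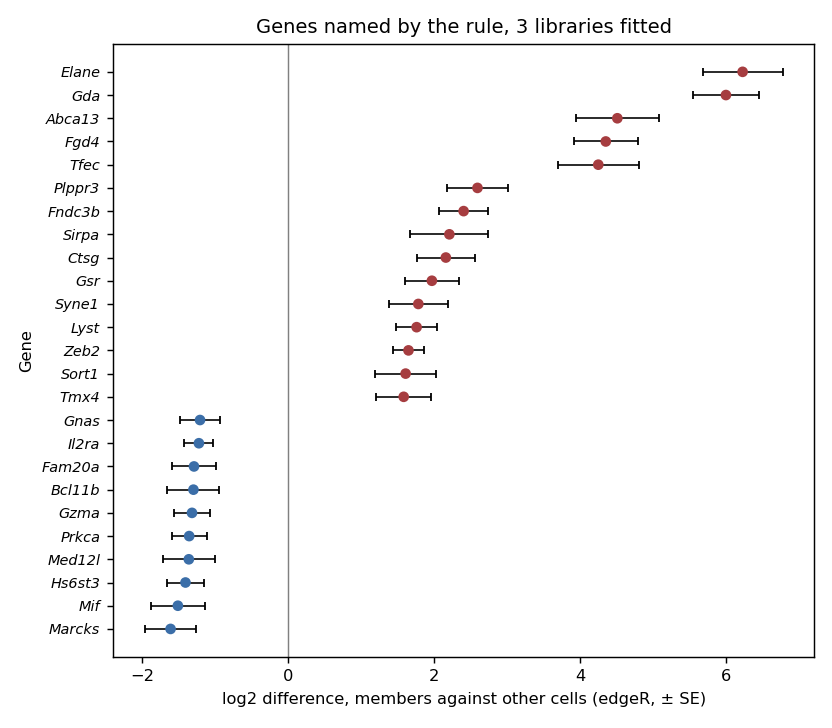
Log2 fold change of the 25 named genes of the first comparison, Mpo or Prtn3 cells against all other cells (edgeR's quasi-likelihood fit, bars are ± 1 SE, n = 3 libraries). Elane (6.23) and Gda (5.999) lie farthest to the higher side, and Il2ra (-1.22), Gzma (-1.32) and Bcl11b (-1.30) lie on the lower side against all other cells.

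T-lineage genes were lower in the chosen cells. Of 29 such genes, 22 were tested, 4 fell (Bcl11b, Cd3g, Thy1 and Il2ra) and 0 rose (12 lower and 0 higher at an unadjusted p under 0.05 by edgeR), with a median log2 fold change of -1.25. DESeq2 called 1 of them lower at its adjusted p, and without WT DN2a edgeR called Il2ra, Tcf7 and Thy1 lower and neither Bcl11b nor Cd3g. Il2ra and Gzma lost their calls without WT DN1 (-1.27 ± 0.33 and -1.33 ± 0.37) and without ΔTE DN1 (-1.21 ± 0.39 and -1.19 ± 0.43). Il2ra, the CD25 chain of the IL-2 receptor and a Notch target, had 88, 56 and 28 UMIs in WT DN1, ΔTE DN1 and WT DN2a. These gave 776, 864 and 2194 CPM against 1670.1, 1837 and 3389 CPM, so that Il2ra was lower in each library while its level in the chosen cells of WT DN2a exceeded that in other DN1 cells (-1.22 ± 0.20, adjusted p = 6.05e-07). Thy1, a surface protein of T cells, had 7, 3 and 3 UMIs (-1.83 ± 0.39, adjusted p = 0.000756). Bcl11b, the gene of the deleted enhancer, had 16, 1 and 2 UMIs, at 141, 15.4 and 157 CPM against 237, 90.2 and 535 CPM (-1.30 ± 0.36, adjusted p = 0.0324), and it passed in 2 of 12 alternatives. Tcf7, which encodes TCF1, did not pass (-0.94 ± 0.28, adjusted p = 0.0746), and Gata3 was at -0.39 ± 0.40. The whole T-lineage list summed to 2453 CPM in the chosen cells of WT DN1 against 4068 CPM in the others, to 2159 against 4171 CPM in ΔTE DN1 and to 4779 against 7617 CPM in WT DN2a.

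Of other lineages in the same cultures, some lymphoid, mast cell and stromal genes fell and some monocyte genes rose. Of 20 innate lymphoid and natural killer genes, 12 were tested and Gzma and Tox fell, and Zbtb16 also fell without WT DN2a. Gzma, granzyme A, gave 247, 355 and 627 CPM in WT DN1, ΔTE DN1 and WT DN2a against 572, 883 and 830 CPM (-1.32 ± 0.24, adjusted p = 2.49e-05), and Tox, a factor of lymphoid development, gave -0.87 ± 0.23 (adjusted p = 0.0177). Cpa3, a mast cell protease that early T cells also carry, fell among 3 tested of 12 mast cell, basophil and eosinophil genes (-1.18 ± 0.27, adjusted p = 0.00245). Col1a2 fell among 9 tested stromal genes, with Bgn beside it without WT DN2a. Hbb-bt fell among the erythroid genes without that library, and with it 0 of 6 dendritic cell, 4 erythroid and megakaryocyte and 5 B cell genes tested passed in either direction by edgeR or DESeq2 (1 higher and 3 lower at an unadjusted p under 0.05 by edgeR). Of 17 monocyte and macrophage genes, 13 were tested and Ly6c2 and F13a1, a coagulation factor chain of monocytes, rose, with a median of 1.04, and without WT DN2a Ly6c2 alone rose. Of 16 late neutrophil granule genes only 5 could be tested, and 0 of these passed by edgeR or DESeq2 (0 at an unadjusted p under 0.05 by edgeR and 1 by DESeq2), with a median of 0.95. The late granule list summed to 239 CPM in the chosen cells against 6639 CPM in cells with 2 or more UMIs of S100a8 and S100a9, cells that the rule left out.

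Processes shared by many cells gave no calls. Of 25 secretory pathway and folding genes, 24 S-phase genes, 24 G2/M genes and 16 glycolysis and NADPH genes, all tested, 0 passed in either direction by edgeR's or DESeq2's adjusted p (2 higher and 5 lower at an unadjusted p under 0.05 by edgeR), and their medians of -0.21, -0.33, -0.29 and -0.20 lay beside -0.20 over all genes. Calr, the chaperone that helps fold myeloperoxidase, was among them at -0.06 ± 0.19. Of 17 heme and peroxidase partner genes, 16 were tested, and Alas1, the first enzyme of heme synthesis, rose (2.35 ± 0.60, adjusted p = 0.0127), with 11, 5 and 0 UMIs in WT DN1, ΔTE DN1 and WT DN2a. Of 11 Notch target genes, 8 were tested and Il2ra fell, with a median of -0.82, and Tcf7 also fell without WT DN2a. Of 26 multipotent progenitor genes, 23 were tested and Lmo2, a partner of early blood factors, rose (2.26 ± 0.58, adjusted p = 0.0161), with a median of -0.24. The list summed to 4340 CPM in the chosen cells and 4331 CPM in the others, and Flt3 (3 UMIs), Cd34 (20 UMIs) and Bcl11a (48 UMIs) did not pass, at 0.14 ± 1.09, -0.13 ± 0.43 and -0.27 ± 0.28.

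A second comparison set the chosen cells beside early progenitor cells of the same libraries, those with at least 2 UMIs of Flt3, Cd34 and Bcl11a in sum and 0 of Mpo and Prtn3 (316 in WT DN1, 145 in WT DN2a and 299 in ΔTE DN1). These sums held fewer UMIs, and 2418 genes were tested. By the same edgeR test 23 were higher (0.951%) and 10 lower (0.414%), and without WT DN2a the counts were 52 and 10, without ΔTE DN1 7 and 0 (with 81 lower at an unadjusted p under 0.05) and without WT DN1 4 and 2. DESeq2 called 2 higher and 0 lower (14 lower at an unadjusted p under 0.05). The sums of the chosen cells are shared with the first comparison, so its values are given side by side and are no second measurement. Rab44, a Rab GTPase of blood cells, gave 256, 293 and 313 CPM in WT DN1, ΔTE DN1 and WT DN2a against 54.7, 35.3 and 115 CPM in the progenitor cells (2.32 ± 0.36, adjusted p = 1.72e-07), and 1.48 ± 0.30 against all other cells. Fndc3b gave 2.84 ± 0.45 (adjusted p = 2.46e-07) and 2.404 ± 0.33. Zeb2 gave 1.66 ± 0.23 (adjusted p = 6.56e-10) and 1.65 ± 0.22, and Lyst, a regulator of lysosome-related granules, 1.87 ± 0.32 (adjusted p = 1.50e-06) and 1.76 ± 0.28. Gsr, glutathione reductase, gave 2.03 ± 0.48 (adjusted p = 0.00411) and 1.97 ± 0.37. Scin, an actin-severing protein, and Tox fell against the progenitor cells (-1.20 ± 0.28, adjusted p = 0.00413, and -0.86 ± 0.22, adjusted p = 0.0125). Of the T-lineage list 8 genes were tested against these cells and 0 passed in either direction by edgeR or DESeq2 (3 lower at an unadjusted p under 0.05 by edgeR), with Il2ra at -0.44 ± 0.17 (adjusted p = 0.266), while Elane, Gda and Abca13 had too few UMIs in both sums for the filter.

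The chosen cells of the DN1 start were not uniform, and other genes followed the number of Mpo and Prtn3 UMIs. From cells with a sum of 0 (19665 cells) through sums of 1 (1045), 2 (152) and 3 (31) to 4 or more (62), Elane went from 0.920 through 10.1, 97.0 and 193 to 545 CPM. Gda went from 2.48 through 17.3, 176 and 386 to 795 CPM, and Dach1 from 6.26 through 10.1, 149.9 and 289.8 to 795 CPM. The same order held for Zeb2, from 199.5 through 265, 547 and 918 to 1362 CPM. Il2ra, Gzma and Tcf7 ran the other way. Il2ra went from 1803 through 1244, 1040.2 and 773 to 227 CPM, Gzma from 751 through 478, 353 and 242 to 136 CPM, and Tcf7 from 344 through 299, 264 and 96.6 to 0 CPM, where 0 UMIs allow up to 68.1 CPM. Other T-lineage genes broke that order, with Bcl11b at 172, 62.2, 123, 145 and 0 CPM, Thy1 at 202, 73.7, 88.2, 0 and 0 CPM and Cd3g at 56.6, 8.67, 8.82, 0 and 22.7 CPM. Kit, a receptor of both kinds of progenitor, had no such order, at 236, 280.4, 220.4, 193 and 182 CPM. Depth moved with the first steps of this order, with medians of 468, 584, 626, 540.0 and 616.5 UMIs, and its part was not tested. These are descriptions of sums over cells, with the order set by the rule's own genes.

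**Figure D3:**
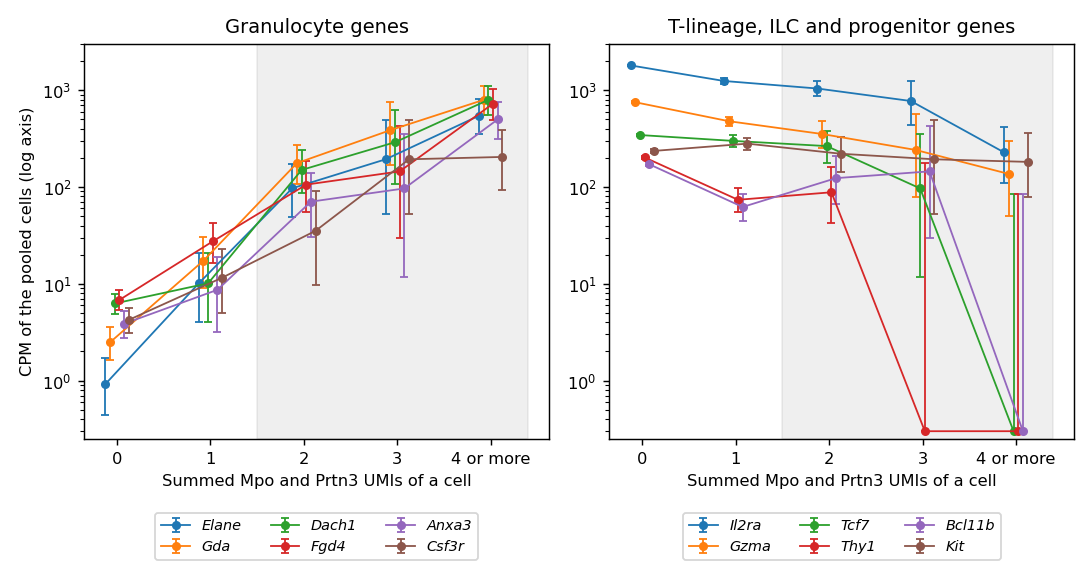
Level (CPM, log axis) of named genes in DN1 cells grouped by their summed UMIs of Mpo and Prtn3 (0, 1, 2, 3, and 4 or more; 0 CPM drawn at the bottom of the axis; the shaded groups are the chosen cells). Elane climbs from 0.920 to 545 CPM and Il2ra descends from 1803 to 227 CPM.

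The 86 DN1 cells with a UMI of the 7 granulocyte genes and the 159 without one had like depth, with medians of 616.5 and 611 UMIs, and differed in genes that did not define the split. Fgd4 stood at 697 CPM in the former and 50.3 CPM in the latter, Dach1 at 901 and 41.9 CPM, Zeb2 at 1326 and 528 CPM, Ly6c2 at 221 and 8.38 CPM and Prkcb, a protein kinase C, at 595 and 92.2 CPM. The 9 T-lineage genes summed to 357 CPM in the former, 1768 CPM in the latter and 2750 CPM in all other DN1 cells. Thy1 was at 0 and 83.8 CPM, Gata3 at 0 and 109 CPM and Il2ra at 255 and 1081 CPM in the groups with and without a granulocyte UMI, where 0 UMIs in the former allow up to 51.0 CPM. Il2ra in the cells without one was thus nearer to the 1049 CPM of Flt3, Cd34 or Bcl11a cells than to the 1753 CPM of all other DN1 cells.

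The 86 cells with a granulocyte UMI were set beside the S100a8 or S100a9 cells of the DN1 libraries (83 cells). They had like levels of Fgd4 and Lyst and far lower levels of the late granule genes Ngp and Ltf. Fgd4 was at 697 CPM in the 86 cells and 901 CPM in the S100a8 or S100a9 cells, and Lyst, a gene of granule formation, at 867 and 861 CPM. Late granule genes set the groups apart, with Ngp at 34.0 and 2843 CPM and Ltf, lactoferrin, at 0 and 741 CPM. Ctsg had the opposite order, at 391 and 80.1 CPM. Cells with 2 or more MHC class II UMIs (181 cells) had 0 UMIs of Fgd4, Dach1 and Ly6c2, which allow up to 30.3 CPM, and more Csf1r and Irf8, at 344 CPM each against 153 and 34.0 CPM in the 86 cells. The rule itself kept S100a8, S100a9 and MHC class II UMIs out of the chosen cells, so that these comparisons describe groups that were set apart by design.

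**Figure D4:**
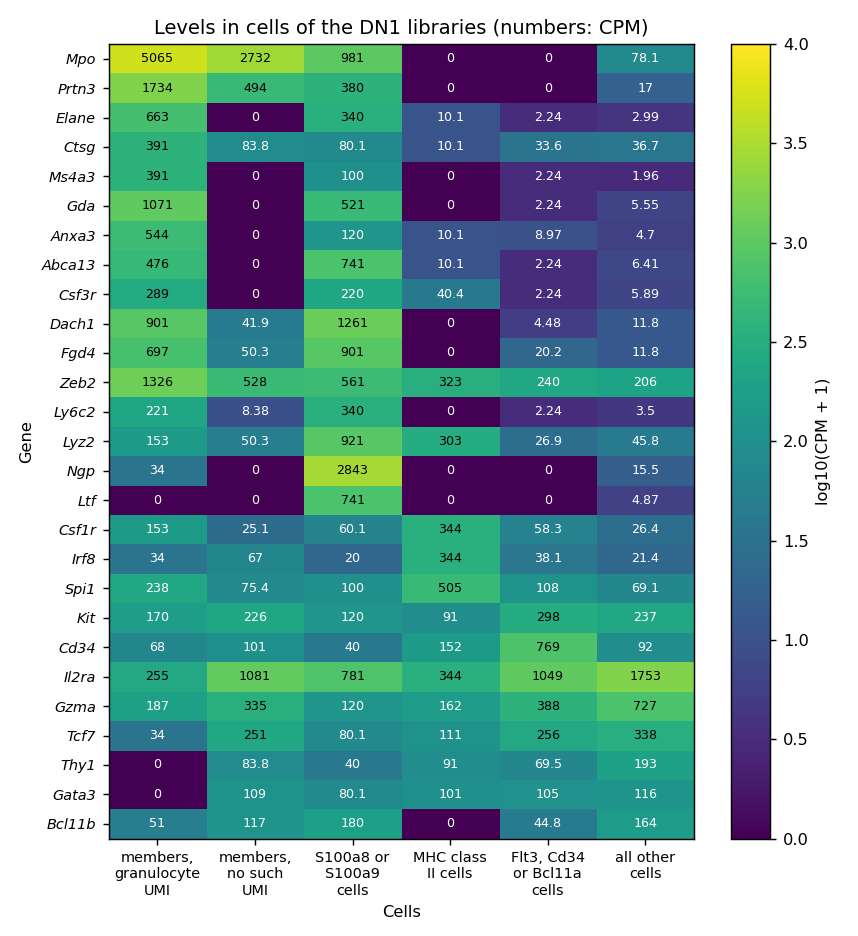
Level (CPM) of named genes in groups of DN1 cells, the chosen cells with and without a UMI of the 7 granulocyte genes, S100a8 or S100a9 cells, MHC class II cells, Flt3, Cd34 or Bcl11a cells and all other cells. Dach1 is high in the chosen cells with a granulocyte UMI (901 CPM) and in S100a8 or S100a9 cells (1261 CPM), and Ngp is high in the latter (2843 CPM).

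The last comparison asked whether the chosen cells themselves differed between genotypes in the DN1 start, where each genotype is 1 library and no test was possible. Among 2068 genes with at least 20 UMIs over both libraries, 66 were past 2-fold higher in ΔTE (3.19%) and 115 past 2-fold lower (5.56%), against 9 past 2-fold in either direction for the same genes in the far more numerous other cells. The median log2 ratio was -0.02, and the exact interval left out 0 for 101 of the 2068 genes. Counting error alone makes such intervals leave out 0 for some genes, and they were not adjusted for the number of genes compared. The count of 101 therefore does not by itself show a difference between the genotypes, and neither does an interval of a single gene. For most granulocyte genes named here the interval of the ratio held 0. Elane was at 216 CPM in ΔTE and 221 CPM in WT (log2 ratio -0.03, -1.09 to 0.97), Gda at 447 and 300.01 CPM (0.58, -0.19 to 1.33), Dach1 at 324 and 326 CPM (-0.01, -0.86 to 0.80) and Zeb2 at 756 and 812 CPM (-0.10, -0.63 to 0.41). Ctsg was lower in ΔTE, at 92.5 against 238 CPM from 6 and 27 UMIs (-1.36, -2.93 to -0.06), and so was Prkcb, at 123 against 335 CPM from 8 and 38 UMIs (-1.44, -2.75 to -0.32).

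Bcl11b itself had 1 UMI in the ΔTE and 16 in the WT cells, at 15.4 and 141 CPM (-3.20, -8.58 to -0.51), beside a ratio of -1.39 in the other cells of these libraries. The lowest ratio was that of Mid1, an X-linked ubiquitin ligase, at 61.7 against 1024 CPM from 4 and 116 UMIs (-4.05, -5.95 to -2.66), and Mid1 was at -3.45 in the other cells too. Kif16b, a kinesin, had 1 and 26 UMIs (-3.90, -9.25 to -1.29) and was at -0.09 in the other cells, and the next lowest were Slc43a3 (-3.65), Ubash3b (-2.84) and Immt (-2.52). At the high end stood Nploc4 (1.90, 0.52 to 3.44), Nusap1 (1.81), Fcer1g (1.72, 0.48 to 3.07), Ctdspl2 (1.65) and Snrpf (1.61). Fcer1g, a signaling chain of Fc receptors, was at 262 CPM in ΔTE and 79.4 CPM in WT from 17 and 9 UMIs, and at 0.77 in the other cells. These 10 genes were picked as the ends of 2068 ratios from few UMIs, and their size is for that reason a description.

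**Figure D5:**
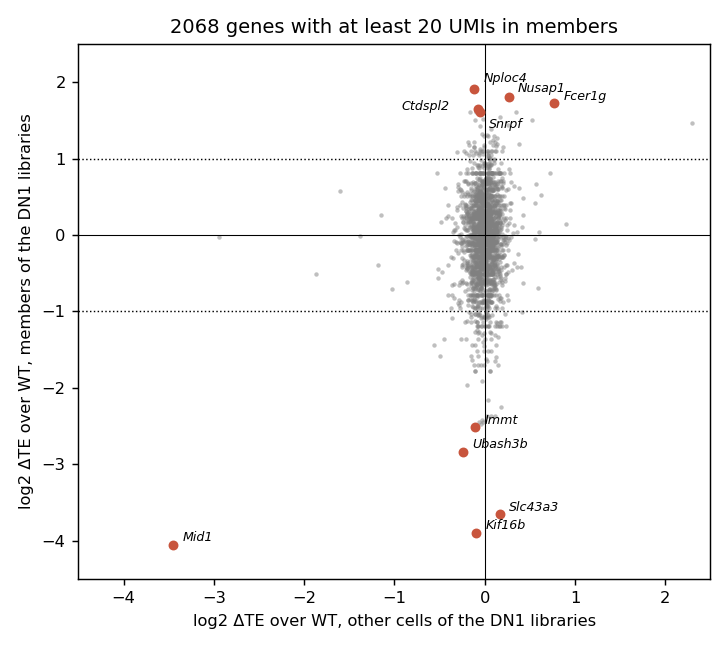
Log2 ratio of ΔTE to WT for genes within the chosen cells of the DN1 start and in the other cells of the same libraries. Intervals given in the text for the chosen cells are exact 95% Poisson intervals and cover counting error only. Mid1 is low in both (-4.05 and -3.45), and Elane (-0.03) and Dach1 (-0.01), which are not labelled, lie near 0 in the chosen cells.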

How the data were processed

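UMIs were counted by sci-RNA-seq3 in 6 libraries. The authors deposited UMI counts per gene and barcode, without normalization or a filter on cells. The submitters' processing notes name mm9; the aligner is not given in the sources used here. Gene coordinates were taken from GENCODE M21 (GRCm38) by Ensembl identifier. The members and gene lists were chosen with earlier results of these data known.

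Cells were kept by the limits given in the results, from the study's methods, and no doublet caller was run. Levels are UMIs summed over the cells of a set, scaled to a total of 1000000 UMIs (CPM) over genes found in at least 15 cells. The sums of 3 libraries with at least 20 members were fitted with the library as a block (edgeR 4.0.16, TMM scaling, filterByExpr with a minimum count of 10, quasi-likelihood F test, two-sided, Benjamini-Hochberg adjustment over all genes tested), without the 7 genes of the rule. The fit rests on 3 libraries that differ in start or genotype. Its p-values use a spread estimated partly over all genes, and they do not measure the spread between replicate cultures. The same fit was also run on simulated counts with known changes, and its outcome is not given here. DESeq2 1.42.0, RLE scaling, other cell limits and other UMI minimums were alternatives, and each library was left out in turn. Shares have exact binomial (Clopper-Pearson) and levels and their ratios exact Poisson 95% intervals (scipy 1.17.1), which cover counting error only.

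Genes named are those of the lists, the 15 largest rises and 10 largest falls of each comparison with at least 20 UMIs in members and 1 direction in every library, and the 5 highest and 5 lowest genotype ratios, and of these a part is described. Dach1, Anxa3, Prkcb, Alas1 and the set of 7 granulocyte genes were named after their values were seen.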

Additional observations from a re-analysis of the deposited data

Results flagged for a closer look

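The share of Mpo or Prtn3 cells was lower in ΔTE than in WT from the DN1 start (log2 ratio -0.85) and higher from the DN2a start (0.16), a difference of -1.02 between the log2 ratios. The ratios had opposite signs and their difference was not tested, with 1 library per condition and an interval of the DN2a ratio, -0.92 to 1.21, that holds 0.

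The limits on cells left out further barcodes with at least 2 UMIs of Mpo and Prtn3. The limit of 2000 UMIs left out 9 such barcodes, 4 of which held a UMI of Elane, Gda, Dach1, Fgd4, Anxa3 or Abca13. The limit of 30% mitochondrial UMIs left out 60, 56 of them in the DN1 libraries, and 13 of the 60 (21.7%) held a UMI of these 6 genes, beside 30.04% of the chosen cells. The limit on MHC class II, S100a8 and S100a9 UMIs left out 16, all in the DN1 libraries with 14 in WT and 2 in ΔTE, and all 16 held a UMI of the 6 genes. Together the 6 genes were at 6140 CPM in these 16 barcodes and at 1324 CPM in the chosen cells.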

How the results depend on the processing

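The shares moved most with the UMI minimum of the rule. At 1 or more UMIs of Mpo and Prtn3 they were 6.71, 1.503 and 0.584% in WT DN1, DN2a and DN2b and 5.41, 1.35 and 0.206% in ΔTE DN1, DN2a and DN2b, with log2 ratios of -0.31 for ΔTE over WT in DN1 and 2.16 for WT DN1 over WT DN2a. At 3 or more they were 0.641% in WT DN1, 0.0154% in WT DN2a, 0.223% in ΔTE DN1 and 0.0259% in ΔTE DN2a, with ratios of -1.52 and 5.38. Thinned to 300 UMIs they were 0.787, 0.0406 and 0% in WT DN1, DN2a and DN2b and 0.366 and 0.0593% in ΔTE DN1 and DN2a. At 300 genes per cell they were 1.91% in WT DN1 and 1.10% in ΔTE DN1, and at 20% mitochondrial UMIs the share in WT DN2b was 0%. The DN1 ratio of ΔTE to WT was below 0 in each of the 8 alternatives run.

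Against all other cells (58 genes higher, 38 lower), DESeq2 called 33 higher and 1 lower, no library block 19 and 0 (866 lower at an unadjusted p under 0.05), 20% mitochondrial UMIs 18 higher, and 3 or more UMIs 95 lower. Leaving out 1 library gave 8 to 75 higher and 1 to 57 lower. Against Flt3, Cd34 or Bcl11a cells (23 higher, 10 lower), RLE scaling called 6 lower, DESeq2 2 and 0, no low-count filter 4 lower, 300 genes 5 and 1, and 3 or more UMIs 36 higher. Leaving out 1 library gave 4 to 52 higher and 0 to 10 lower. Within DN1 members, TMM scaling put 37 genes past 2-fold higher in ΔTE, and a minimum of 50 UMIs left 3 higher and 3 lower, since fewer genes were compared. The cause of the other shifts was not tested. Of 300 alternative values of the 25 named genes against all other cells, 78 lost an adjusted p under 0.05 and 0 turned direction; against the progenitor cells 89 of 158 lost it and 0 turned. No paired analysis was possible because each condition is 1 library, which holds for the genotype and start comparisons; chosen and other cells were paired within libraries by the block. Depth limits the genes with few UMIs: 3 UMIs are 26.5 CPM in the chosen cells of WT DN1 and 235 CPM in those of WT DN2a.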
